A study of Caenorhabditis elegans with 6 samples.

Results

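The 9 genes described here, ges-1, ifb-2, ifc-2, act-5, pho-1, pept-1, vha-6, mtl-1 and mtl-2, are genes of the intestinal lumen and of intestinal differentiation in Caenorhabditis elegans. A probe set was counted as a member if the platform annotation gives it 1 of these genes alone, which holds for 14 of the 22548 probe sets tested and covers all 9 genes of the 17138 that have a probe set of their own. ifc-2 and mtl-2 have 3 probe sets each, pho-1 has 2 and the other 6 genes have 1. No probe set names a member together with another gene, but 10 of the 14 are of a type whose probes can bind several transcripts. Probe sets of 1 gene are repeated readings of that gene and not replicates.

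RNA of whole worms was hybridized to the Affymetrix C. elegans genome array from 3 hs::ΔNTbar-1 samples and 3 hs::control samples, 1 array each. hs::ΔNTbar-1 animals carry the integrated array huIs7, in which a heat shock promoter drives a Myc-tagged form of the beta-catenin BAR-1 that lacks its amino terminus, together with mec-7::GFP and dpy-20(+). hs::control animals carry the integrated array deIs14 with the empty heat shock vector, mec-7::GFP and dpy-20(+), made in dpy-20(e1282) animals. Both strains were heat-shocked once for 30 min as young larvae (L3 in the labels, the L2/L3 molt in the methods) and collected after a recovery, so heat shock is common to all 6 samples. The labels give 30° for the heat shock and the methods a higher temperature. Each condition is a single strain, so a response to ΔNTBAR-1 and other fixed differences between the strains cannot be told apart.

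The intestine of C. elegans is a tube of large epithelial cells around a lumen that is lined by microvilli. Beneath the microvilli lies a sheath of intermediate filaments, and the apical membrane carries the pumps and transporters that acidify the lumen and take up food peptides. The GATA factor ELT-2 switches on most genes of the differentiated gut, among them enzymes long used as markers of intestinal fate, and the same cells store and detoxify metals. The comparison asks how far these genes moved in animals that expressed ΔNTBAR-1, a form that the study uses to activate Wnt signaling.

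None of the 14 probe sets passed the test between the groups. The lowest adjusted p was 0.164 in limma with Benjamini-Hochberg adjustment over all probe sets, where 152 probe sets (0.674%) passed at the threshold of 0.05. The study's own criteria ask for a 2-fold difference of the means, an unadjusted p of 0.05 or less in an analysis of variance and 2 of 3 arrays on the same side. By them 0 of the 14 passed as well, against 282 probe sets (1.25%) over the array. Without adjustment, 4 of the 14, which belong to pept-1, pho-1 and ifc-2, were lower in hs::ΔNTbar-1 animals at a p of at most 0.05, against 6.4% of all probe sets, and 0 were higher, against 7.08%. On those same 4 probe sets all hs::ΔNTbar-1 arrays lay below all hs::control arrays, which holds for 10.1% of all probe sets. The probe set of act-5 was the only 1 of the 14 on which all hs::ΔNTbar-1 arrays lay above, against 10.7% of all. With 3 arrays per group an exact permutation test cannot give a p below 0.1. In RNA of whole worms, fewer cells of a type and less RNA per cell cannot be told apart.

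Signals are given here as deposited, on a linear scale in arbitrary units on which every array has the same trimmed mean. A signal can be compared between arrays for 1 probe set but not between probe sets. Fold changes are on the log2(signal + 16) scale as hs::ΔNTbar-1 over hs::control, so those of dim probe sets are understated. The median log2 fold change was -0.11 over the 14 member probe sets and 0.00354 over all probe sets. The array medians lay between 130.9 and 145. bar-1 itself, the gene on the transgene, had signals of 7755, 20991 and 16009 in hs::ΔNTbar-1 animals, against 586, 519.5 and 575 in hs::control animals, so each array was on the side its label gives (log2 fold change 4.58, adjusted p = 0.00775 from limma).

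**Figure D1:**
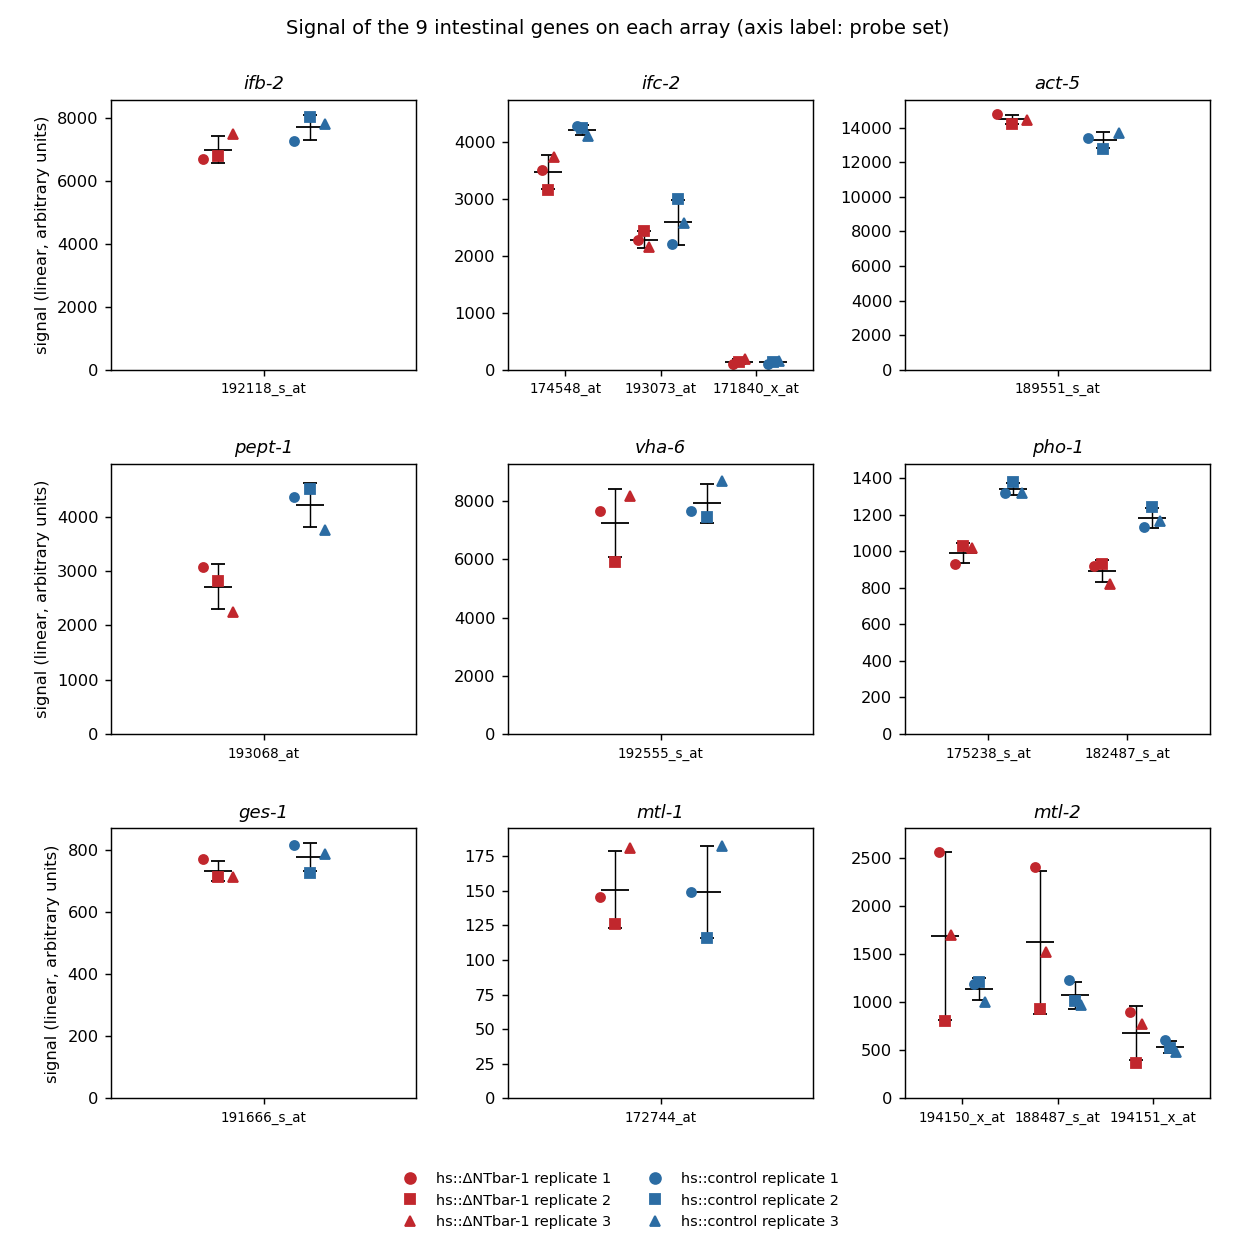
Signal (linear, arbitrary units) of every probe set of the 9 genes on each array, with hs::ΔNTbar-1 in red left of hs::control in blue, 1 symbol shape per replicate number, and bars for the mean ± SD of 3 arrays. The groups are apart for pept-1, both probe sets of pho-1, the brightest of ifc-2 and act-5, and overlap on the other 9 probe sets.

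Of the cytoskeletal genes, ifb-2 and ifc-2 encode intermediate filament proteins of the sheath below the microvilli and act-5 the actin of the microvilli. ifc-2 (M6.1) had signals of 3511, 3154 and 3743 on its brightest probe set in hs::ΔNTbar-1 animals, against 4290, 4242 and 4115 in hs::control animals. Every hs::ΔNTbar-1 array was below every hs::control array, by a mean log2 fold change of -0.28 (standard error 0.11, 95% interval -0.56 to -0.01, adjusted p = 0.353 from limma). A second probe set of ifc-2 had 2274, 2435 and 2152 in hs::ΔNTbar-1 animals and 2204, 2996 and 2576 in hs::control animals. There the groups overlapped, since hs::control replicate 1 was as low as the hs::ΔNTbar-1 arrays (log2 fold change -0.17 with a standard error of 0.15, limma adjusted p = 0.676). The third probe set had low signals, at 103 to 185 in hs::ΔNTbar-1 and 103 to 147 in hs::control animals, and showed no difference in either direction beyond its spread (log2 fold change 0.07 ± 0.23 SE).

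ifb-2 (F10C1.7) had signals of 6691, 6770 and 7469 in hs::ΔNTbar-1 animals, against 7259, 8020 and 7794 in hs::control animals. All 3 hs::ΔNTbar-1 arrays were below the hs::control mean, but replicate 3 lay within the range of the hs::control arrays (log2 fold change -0.14 with a standard error of 0.11, limma adjusted p = 0.642). act-5 (T25C8.2) varied least of the 14 probe sets among hs::ΔNTbar-1 arrays, with 14778, 14251 and 14453 in hs::ΔNTbar-1 animals, against 13432, 12769 and 13691 in hs::control animals. The groups did not overlap, yet the difference was small, at a log2 fold change of 0.12 (standard error 0.10, 95% interval -0.12 to 0.37, adjusted p = 0.652 from limma).

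Related genes of filaments, actins and the brush border gave 0 calls in limma. The 12 further intermediate filament genes and filament organizers, all measured, include genes of other tissues and not only of the intestinal sheath. They are not split by tissue here. Of these 12, 1 was higher and 3 were lower at an unadjusted p of at most 0.05, against 1242 and 1146 of all 17138 genes. The median log2 fold change of the 12 was -0.07, against 0.000608 over all 17138 genes. ifd-1, another intermediate filament gene, had signals of 994, 1066 and 1144 in hs::ΔNTbar-1 animals, against 1784, 1688 and 2003 in hs::control animals. This separation, with a log2 fold change of -0.76 (standard error 0.12), came closest of these to the threshold, at an adjusted p of 0.0628 from limma. It passed without dim probe sets, those under the 40th percentile of mean log2 signal (0.00983), with a pseudocount of 64 (0.0178), with each array centred on its median (0.0483) and where the variance was modelled as trended and robust (0.00256). It did not pass with quantile normalization (0.0625), a pseudocount of 1 (0.104), no probe sets of shared types (0.0776) or any of the 6 arrays left out (0.134 to 0.204).

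ifd-2 had 645, 701 and 637 in hs::ΔNTbar-1 animals, against 937, 832 and 1087 in hs::control animals (a log2 fold change of -0.51 ± 0.13 SE, adjusted p = 0.191 from limma, and 0.04 with the trended and robust model). ifp-1 had 1772, 1621 and 1763 in hs::ΔNTbar-1 animals, against 1871, 2080 and 1974 in hs::control animals (-0.20, adjusted p = 0.484). Both were lower without overlap. Over all 17138 genes, 1804 were lower and 1884 higher without overlap, and over the 12 genes 4 were lower and 2 higher. Besides ifd-1, ifd-2 and ifp-1, the lower ones included ifa-1, with 3268, 3552.5 and 3736 in hs::ΔNTbar-1 animals, against 4210, 4294.5 and 4155 in hs::control animals (-0.26 ± 0.11 SE, adjusted p = 0.36 from limma). The 2 higher ones were mua-6 and bbln-1. mua-6 had 2541, 2020 and 2611 in hs::ΔNTbar-1 animals, against 1681, 1874 and 1660 in hs::control animals (0.45 ± 0.14 SE, adjusted p = 0.25 from limma). bbln-1 had 2572, 2537 and 2321 in hs::ΔNTbar-1 animals, against 2181, 2077 and 1999 in hs::control animals (0.25 ± 0.11 SE, adjusted p = 0.396 from limma). ifc-1, the gene closest in name to ifc-2, had a log2 fold change of the other sign, with 3254, 2465 and 3217 in hs::ΔNTbar-1 animals, against 2216, 2502 and 2189 in hs::control animals (0.36 ± 0.15 SE, adjusted p = 0.372). Its groups overlapped through hs::ΔNTbar-1 replicate 2. ifo-1, which organizes the filaments, was at -0.12 (adjusted p = 0.763).

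Among the other actins, act-4 was at -0.16 (adjusted p = 0.565 in limma) and act-3 at 0.01 (0.977), and act-1 and act-2 have no probe set of their own. Of 13 listed genes of the brush border and apical junction, 11 were measured and 0 passed limma's test, with 1 higher and 0 lower at an unadjusted p of at most 0.05 and a median log2 fold change of -0.08. erm-1, the ezrin-type linker of membrane and actin, was at -0.12 (adjusted p = 0.694) and eps-8, a microvillar actin regulator, at -0.08 (0.854). The 2 largest values were those of plst-1 (-0.78, adjusted p = 0.448), at a dim signal of 13.5 ± 2.56 in hs::ΔNTbar-1 and 39.3 ± 24.9 in hs::control animals (SD, n = 3 arrays), and crb-1, a Crumbs homolog (0.50, adjusted p = 0.189).

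Of the 2 genes of the apical membrane, pept-1 showed the largest log2 fold change in size among the 14 probe sets. pept-1 (K04E7.2) encodes the proton-coupled transporter that takes up dipeptides and tripeptides from the lumen. Its signals were 3083, 2815 and 2253 in hs::ΔNTbar-1 animals, against 4374, 4514 and 3760 in hs::control animals. The groups did not overlap, and replicate 3 was the lowest array in both. The log2 fold change was -0.64 (standard error 0.16, 95% interval -1.02 to -0.26), which is a signal 0.642 times that of hs::control animals, with an adjusted p of 0.17 in limma. It passed with a trended and robust variance model (adjusted p = 0.0185) and without dim probe sets (0.0471). Leaving out any of the 6 arrays gave an adjusted p of 0.251 to 0.331 and a log2 fold change of -0.74 to -0.51.

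vha-6 (VW02B12L.1) encodes a subunit of the proton pump that acidifies the lumen. Its signals were 7679, 5917 and 8164 in hs::ΔNTbar-1 animals, against 7658, 7448 and 8695 in hs::control animals. Apart from the low hs::ΔNTbar-1 replicate 2 the groups covered the same range (log2 fold change -0.14, standard error 0.16, 95% interval -0.52 to 0.24, adjusted p = 0.763 from limma), and without that array the value was 0.000463.

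Of 8 other genes of peptide transport and of pH and rhythm in the gut, 0 passed limma's test, with 1 higher and 1 lower at an unadjusted p of at most 0.05. pept-2, a second peptide transporter gene, had 481, 430 and 484 in hs::ΔNTbar-1 animals, against 336, 361 and 359 in hs::control animals. It was thus higher without overlap where pept-1 was lower (log2 fold change 0.38 ± 0.11 SE, adjusted p = 0.213). nhx-2, the sodium-proton exchanger of the apical gut membrane, was at 0.00158 (adjusted p = 0.997), and nhx-1, another exchanger of the family, at -0.65 (0.244). Of 21 other V-ATPase genes 19 were measured and 0 passed limma's test. 6 had a positive and 13 a negative log2 fold change, 0 and 2 of them at an unadjusted p of at most 0.05, with a median of -0.05. These were the subunit genes vha-4, at 7144, 6829 and 6650 in hs::ΔNTbar-1 and 8421, 8361 and 8818 in hs::control animals (-0.31, adjusted p = 0.263, and 0.0359 with the trended and robust model), and vha-14 (-0.31, adjusted p = 0.316). A second probe set of vha-14 gave 0.02.

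**Figure D2:**
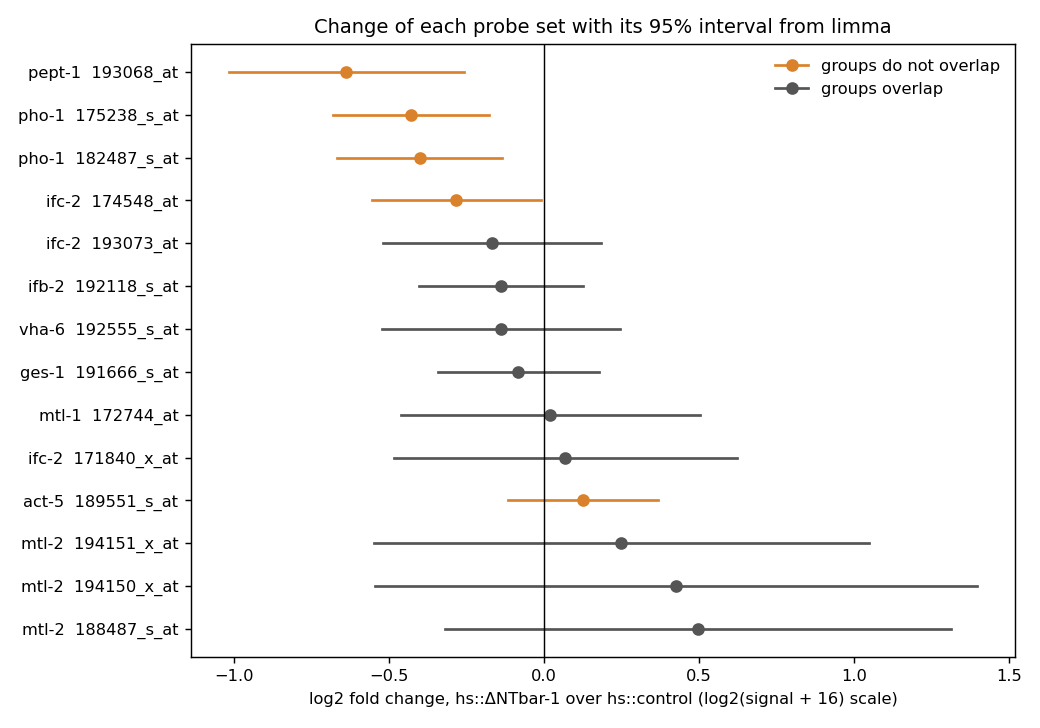
Log2 fold change of each of the 14 probe sets (hs::ΔNTbar-1 over hs::control, log2(signal + 16) scale) with its 95% interval from limma, in orange where the groups do not overlap. The interval leaves out 0 for pept-1, both probe sets of pho-1 and the brightest of ifc-2, before any adjustment for the number of probe sets tested, and is widest for mtl-2.

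The enzyme genes pho-1 and ges-1 are markers of the differentiated gut. pho-1 (EGAP2.3), an intestinal acid phosphatase gene, was lower on both of its probe sets. On the brighter one it had 928, 1029 and 1016 in hs::ΔNTbar-1 animals, against 1321, 1379 and 1320 in hs::control animals. On the other it had 919.6, 929.5 and 820.5 in hs::ΔNTbar-1 animals, against 1135, 1242 and 1164 in hs::control animals. On each the groups were apart by more than either spread, at log2 fold changes of -0.43 (standard error 0.10, 95% interval -0.68 to -0.18) and -0.40 (standard error 0.11, 95% interval -0.67 to -0.14), or 0.742 and 0.757 times the signal of hs::control animals. The adjusted p was 0.164 and 0.205 in limma, 0.0263 and 0.0462 where the variance was modelled as trended and robust, and 0.0486 and 0.0679 without dim probe sets. Leaving out any of the 6 arrays gave 0.287 to 0.355 on the brighter probe set and 0.321 to 0.386 on the other.

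ges-1 (R12A1.4) encodes the gut esterase, an early marker of intestinal fate. Its signals were 771, 713 and 714 in hs::ΔNTbar-1 animals, against 817, 728 and 789 in hs::control animals. The hs::ΔNTbar-1 arrays were all below the hs::control mean, but the difference was within the spread (log2 fold change -0.08, standard error 0.11, 95% interval -0.34 to 0.18, adjusted p = 0.797 from limma).

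The other acid phosphatase genes lay on both sides of 0. Of 11 further pho genes 10 were measured, 1 rose and 0 fell in limma, and the median log2 fold change was -0.13. pho-7 had 416.5, 409 and 461 in hs::ΔNTbar-1 animals, against 177, 194 and 169.6 in hs::control animals, so that its signal was 2.27 times as high (log2 fold change 1.18 with a standard error of 0.11, limma adjusted p = 0.014). The call was lost whichever of the 6 arrays was left out (adjusted p 0.0609 to 0.08). pho-8 (-0.40, adjusted p = 0.196) and pho-13 (-0.39, adjusted p = 0.229) lay on the side of pho-1, with groups that did not overlap.

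Of 32 listed genes of digestion, fat metabolism and transport in the gut, 29 were measured, 15 had a positive and 14 a negative log2 fold change, 0 passed limma's test and the median was 0.01. At an unadjusted p of at most 0.05, 2 were higher and 1 was lower. fat-7, a stearoyl-CoA desaturase gene, was at 0.53 (standard error 0.17, adjusted p = 0.252) and pgp-1, a P-glycoprotein gene, at -0.47 (standard error 0.12, adjusted p = 0.178).

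**Figure D3:**
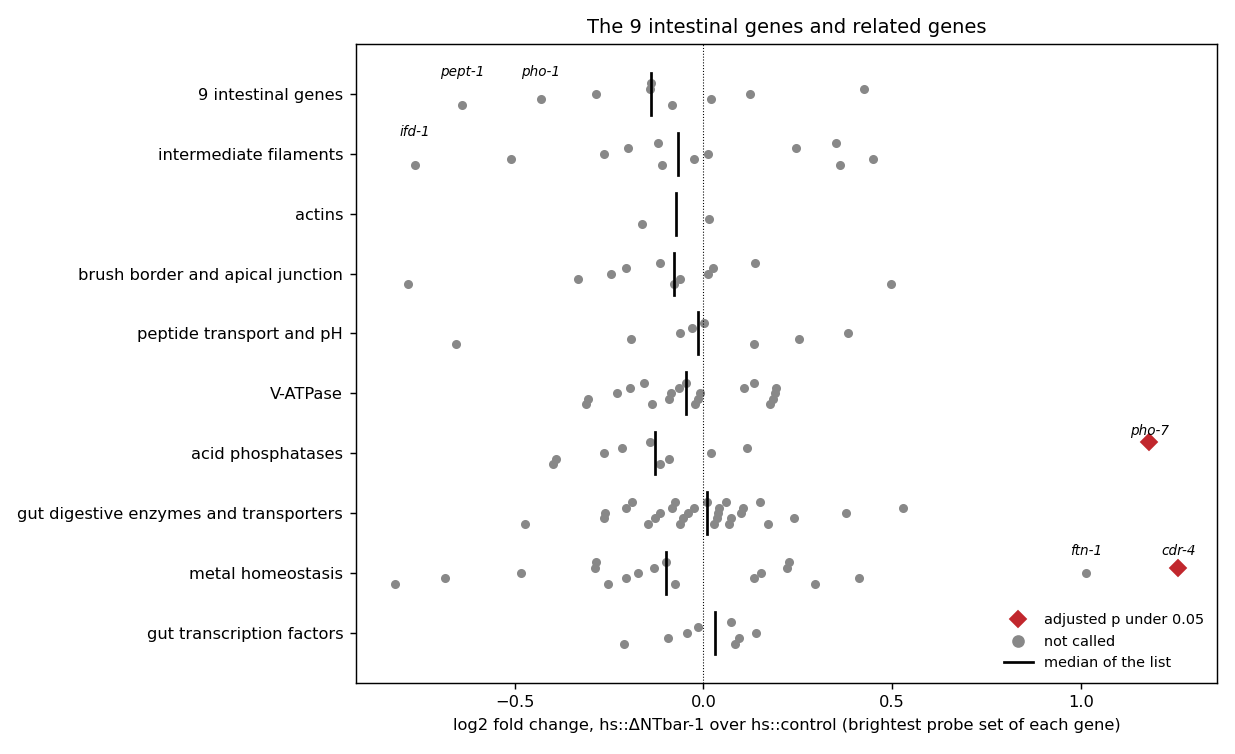
Log2 fold change (hs::ΔNTbar-1 over hs::control) of the 9 intestinal genes and of related genes by list, each gene by its brightest probe set, with red diamonds for an adjusted p under 0.05 in limma, grey points for the rest and a bar at each list's median. pho-7 and cdr-4 are the 2 genes past the threshold, and the medians of the lists drawn lie between -0.14 and 0.03. The heat shock genes and the tissue markers are not drawn.

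The metallothionein genes mtl-1 and mtl-2 encode small cysteine-rich proteins that bind metals, and their transcription in the intestine is known to be induced by cadmium and other stress. mtl-2 (T08G5.10) was the member that varied most among samples of 1 condition. On its brightest probe set it had 2565, 809 and 1700.3 in hs::ΔNTbar-1 animals, against 1193, 1208 and 1002.5 in hs::control animals. hs::ΔNTbar-1 replicates 1 and 3 were thus above every hs::control array and replicate 2 was below every one. Both other probe sets gave the same order of the hs::ΔNTbar-1 arrays, with 2416, 933 and 1528 on the second and 904, 369.8 and 769 on the third, against 1233, 1014 and 971 and against 605, 519 and 485 in hs::control animals.

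Over the 3 probe sets of mtl-2, the highest hs::ΔNTbar-1 array had 2.44 to 3.17 times the signal of the lowest, and the highest hs::control array 1.21 to 1.27 times. The median of the first ratio over all probe sets was 1.37, and between 2.12% and 5.65% of all probe sets had an SD of the log2 values among hs::ΔNTbar-1 arrays at least as large. The log2 fold changes were 0.43, 0.50 and 0.25 (standard errors 0.40, 0.34 and 0.33, adjusted p 0.707, 0.589 and 0.806 in limma). Without hs::ΔNTbar-1 replicate 2 they were 0.88, 0.84 and 0.63, and without replicate 1 they were 0.05, 0.16 and 0.0018, and none of these passed either.

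mtl-1 (K11G9.6) had low signals, with 145, 126 and 181 in hs::ΔNTbar-1 animals, against 149, 116 and 182.5 in hs::control animals. The groups covered a similar range (log2 fold change 0.02, standard error 0.20, 95% interval -0.46 to 0.50, adjusted p = 0.978 from limma), and the sign turned with quantile normalization (-0.01) and with centring (-0.01).

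Heat-inducible genes also differed between arrays of 1 condition. hsp-70 had 134, 1546 and 269 in hs::ΔNTbar-1 animals, against 1384, 98.5 and 104 in hs::control animals. hsp-16.2 had 3269, 6172 and 5527 in hs::ΔNTbar-1 animals, against 5148, 1742 and 2771 in hs::control animals. The summed signal of the 3 heat shock genes with a probe set of their own, of 9 listed, was 10260 to 17556 in hs::ΔNTbar-1 and 6388 to 13136 in hs::control animals, their median log2 fold change was 0.60, and 0 of them passed limma's test or an unadjusted p of 0.05. Their part in the spread of mtl-2 was not tested.

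At an unadjusted p of at most 0.05, 1242 of all 17138 genes were higher and 1146 lower. Of 22 other genes of metal handling 19 were measured, of which 1 rose and 0 fell in limma, while 4 were higher and 2 lower at that unadjusted p. These counts leave out, among others, 1 probe set that the annotation gives to 2 genes of the list together, numr-1 and numr-2, and that fell. It had 194, 234 and 245 in hs::ΔNTbar-1 animals, against 892, 769 and 685 in hs::control animals (-1.73 ± 0.15 SE, adjusted p = 0.0112 from limma), and which of the 2 genes it reads cannot be told. The probe set of numr-2 alone, which is counted, was dim and overlapped, at 25.8 ± 6.89 in hs::ΔNTbar-1 and 36.2 ± 19.4 in hs::control animals (-0.25, adjusted p = 0.787). cdr-4, of the cadmium-responsive family, had 3023, 2891 and 2958 in hs::ΔNTbar-1 animals, against 1262, 1100.3 and 1331 in hs::control animals. Its signal was 2.39 times as high with a wide gap between the groups (log2 fold change 1.26 with a standard error of 0.12, limma adjusted p = 0.0135), and the call was lost whichever array was left out (adjusted p 0.0538 to 0.08). cdr-1, for which the family is named, was at 0.13 (adjusted p = 0.827). ftn-1, the gut ferritin gene, had 966, 702 and 795 in hs::ΔNTbar-1 animals, against 468.5, 398 and 330.5 in hs::control animals (a log2 fold change of 1.01 ± 0.18 SE). Its adjusted p was 0.082 in limma, 0.00585 with the trended and robust model, 0.0147 without dim probe sets and 0.0304 with a pseudocount of 64, but 0.0879 with quantile normalization, 0.127 with centring, 0.142 with a pseudocount of 1 and 0.137 to 0.225 with any of the 6 arrays left out. hizr-1, the nuclear receptor for zinc excess, was dim and lower without overlap, at 43.9 ± 7.13 in hs::ΔNTbar-1 and 68 ± 12.6 in hs::control animals (-0.48, adjusted p = 0.276).

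**Figure D4:**
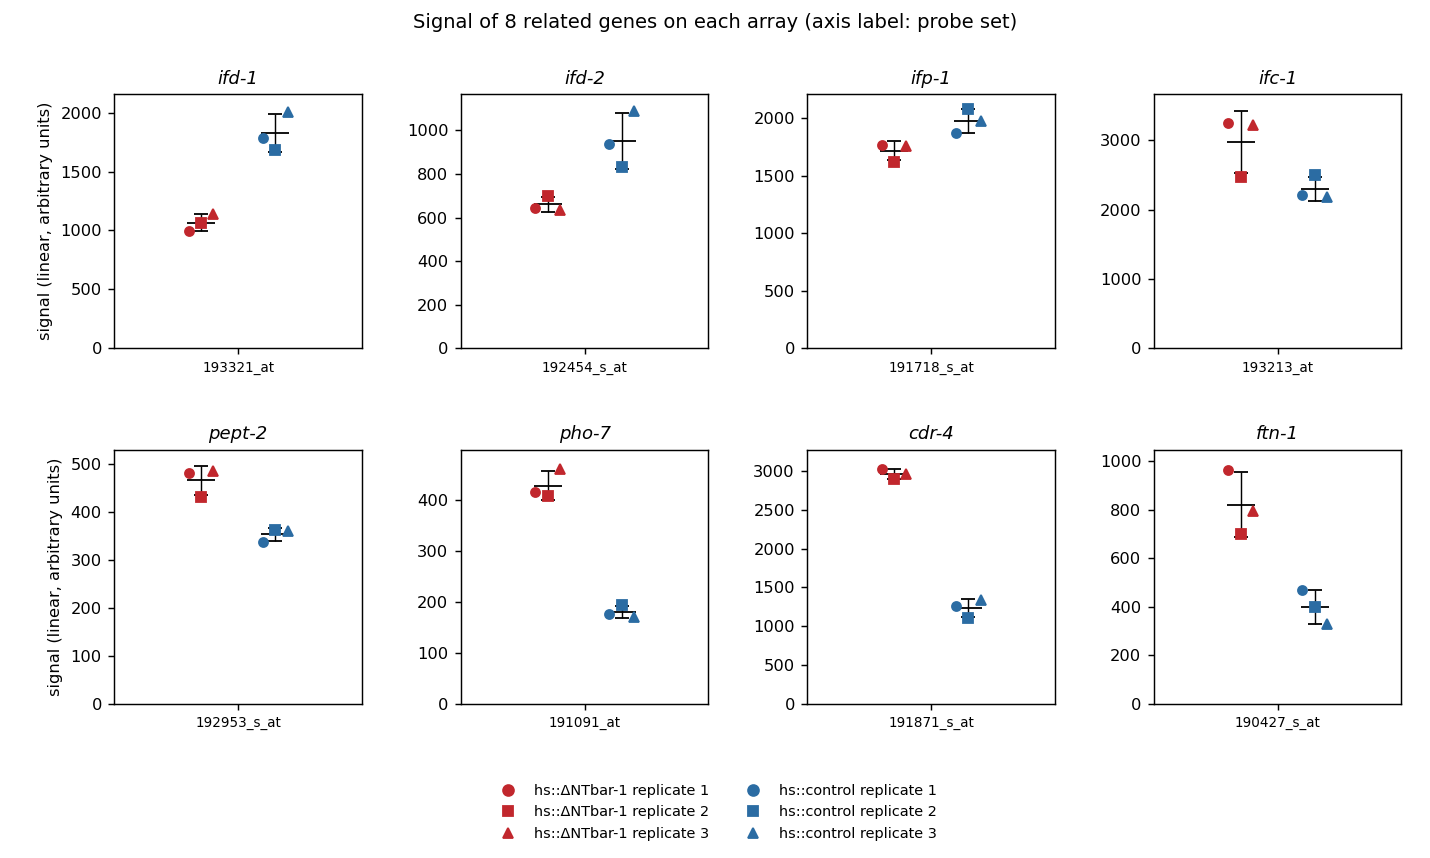
Signal (linear, arbitrary units) on each array of 8 genes related to the 9 intestinal genes, with hs::ΔNTbar-1 in red left of hs::control in blue, 1 symbol shape per replicate number, and bars for the mean ± SD of 3 arrays. Only pho-7 and cdr-4 passed limma's test. ifc-1 is the 1 gene of the 8 whose groups overlap.

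The listed regulators of foregut and intestine gave 0 calls in limma, and 0 were at an unadjusted p of at most 0.05. Of 10 listed, 8 were measured, with a median log2 fold change of 0.03 and values between -0.21 and 0.14. elt-2 had 354, 389 and 409 in hs::ΔNTbar-1 animals, against 399.9, 471 and 472 in hs::control animals. The groups overlapped only slightly (log2 fold change -0.21 ± 0.12 SE, adjusted p = 0.518), and the second elt-2 probe set gave -0.18. elt-7, a second GATA factor of the gut, was at -0.01 (adjusted p = 0.977), and end-1, an endoderm GATA factor of the embryo, at 0.14 (0.875).

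Markers of other tissues were read from the same RNA. By their brightest probe sets, all 5 pharyngeal muscle markers had a negative log2 fold change (median -0.42), with a summed signal of 14714 to 16196 in hs::ΔNTbar-1 and 17686 to 20055 in hs::control animals. A second probe set of myo-1 gave 0.23. Of 8 neuron markers 7 were negative (median -0.14). Dimmer probe sets of these 7 lay on both sides, at 0.42 and -0.32 for unc-10, 0.04 for egl-3 and 0.01 for rab-3. Those of unc-13 and snt-1 were negative. The median was -0.04 over 7 markers of body wall muscle, 0.03 over the 7 of hypodermis that were measured of 8, and 0.11 over 8 of the germ line. None of these markers passed limma's test, and at an unadjusted p of at most 0.05 there were 3 of the pharyngeal and 1 of the neuron markers lower, 2 of hypodermis higher and 1 lower, and 1 of the germ line higher. Over all 17138 genes, 1242 were higher and 1146 lower at that p. The summed signal of the 9 intestinal genes, each by its brightest probe set, was 35583 to 40152 in hs::ΔNTbar-1 and 40424 to 41348 in hs::control animals. Over all genes it was 13934878 to 14383667 and 14119736.5 to 14821781. Such a sum gives most weight to the brightest probe sets, here act-5, vha-6 and ifb-2, so it does not measure the 9 genes alike. The part of tissue proportions in the values of pept-1, pho-1 and ifc-2 was not tested.

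Over the 14 probe sets, hs::ΔNTbar-1 replicate 2 was the lowest array on 6, among them every probe set of mtl-2, and the highest on 0. hs::control replicate 2 was the highest on 5, among them both probe sets of pho-1, and the lowest on 2. These counts thus repeat genes, and they were not set against those over all probe sets.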

How the data were processed

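RNA of 3 hs::ΔNTbar-1 and 3 hs::control samples was measured on 6 one-color Affymetrix arrays. The authors deposited a linear signal intensity per probe set, read here as the MAS5 signal because its 2% trimmed mean is 500.2 on every array. The methods name MAS 5 for detection calls and Partek with RMA for statistics, so the scale is inferred from the values. Detection calls and scanner files were not used here. The replicates are independent biological samples per the methods.

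After 77 control probe sets were left out, log2(signal + 16) was fitted with limma 3.58.1 in R 4.3.3 (lmFit, eBayes, two-sided), with Benjamini-Hochberg adjustment over 22548 probe sets and a threshold of 0.05, and the script was tested on simulated data. A gene is given by its brightest probe set. Genes came from the platform annotation: 887 probe sets name several genes and 895 none, and none of these was counted for a single gene. Symbols were updated with the RefSeq table of assembly WBcel235. Members and related lists were chosen with earlier results of these data known. The text names every member and, from each related list, the genes that passed limma's test or, with none, the 2 of largest log2 fold change, besides elt-2, ifc-1, ifo-1, erm-1, eps-8, nhx-2, cdr-1, hizr-1 and bar-1. Outside this rule, ftn-1, ifa-1, ifp-1, mua-6, bbln-1, pho-8, pho-13, elt-7, numr-1, numr-2 and the tissue markers named were picked with their values in view. The fit was repeated with quantile normalization, with arrays centred on their medians, no dim probe sets (under the 40th percentile), no probe sets of shared types, pseudocounts of 1 and 64, a trended and robust variance, the replicate number as a block, and each array left out. For member probe sets the log2 ratio of the mean signals without a pseudocount was also taken, without a test.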

Additional observations from a re-analysis of the deposited data

How the results depend on the processing

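The count of member probe sets past limma's threshold, 0 as reported, was 2 without dim probe sets (pept-1 and 1 of pho-1) and 3 with the trended and robust variance (pept-1 and both of pho-1), and 0 under the other alternatives run. Over all probe sets, 152 passed as reported, 633 without dim probe sets, 89 without probe sets of shared types, 89 with a pseudocount of 1, 389 with 64, 833 with the trended and robust variance, 2 with the replicate block and 23 to 44 with an array left out. Of the related genes, 2 passed as reported, 3 with centring (ifd-1 gained), 4 without dim probe sets, 1 without shared types, 4 with a pseudocount of 64, 6 with the trended and robust variance, 0 with the block and 0 with any array left out. By the study's criteria as applied here, 282 probe sets passed with the pseudocount of 16, 500 with a pseudocount of 1 and 141 with 64. Same-numbered arrays deviated from their group means with correlations of 0.0659, -0.0211 and 0.0647, so the numbers were not taken as pairs. The sign turned with 1 array left out for vha-6 (log2 fold change -0.23 to 0.000463, positive without hs::ΔNTbar-1 replicate 2), for the third ifc-2 probe set (-0.14 to 0.24, negative without the third hs::ΔNTbar-1 or the first hs::control array) and for mtl-1 (-0.13 to 0.16, negative without the third hs::ΔNTbar-1 or the second hs::control array). It also turned for mtl-1 with quantile normalization (-0.01081) and with centring (-0.01018). The cause of these changes was not tested. Of 200 member values under alternatives, 188 were rated the same, 5 came to pass the threshold and 7 turned sign. The same means that direction and side of the threshold were kept. The ratios of mean signals without a pseudocount have no test. For them it means the same sign and a value within 1 standard error. Low signals, as for mtl-1 and the third ifc-2 probe set, and the number of arrays limit the precision.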
